A study of Mus musculus with 6 samples.

Results

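The machinery that moves proteins between the endoplasmic reticulum (ER) and the Golgi apparatus was examined in mouse pancreas after deletion of Ptf1a, a transcription factor of acinar cells. Its genes were chosen by symbol, as those encoding subunits of the COPII and COPI coats and their assembly factors, ARF GTPases and ARF GAPs, p24 proteins (Tmed), lectin and KDEL receptors, TRAPP and COG subunits, golgins, and SNAREs of the Sec22, Gosr and Bet1 families. This rule found 84 of the 10245 genes in the table, and all 84 were tested.

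RNA of the whole pancreas was sequenced in 6 mice, of which 3 were controls with the genotype Ptf1a(CreER/+) and 3 were Ptf1a cKO with the genotype Ptf1a(CreER/fl). All 6 mice had received tamoxifen in corn oil by gavage at 0.25 mg per g of body weight on 3 consecutive days, and tissue was taken on day 14, counted from the first dose. The CreER allele replaces Ptf1a and drives a tamoxifen-activated Cre recombinase from the Ptf1a locus, that is, in acinar cells. The controls therefore also had 1 functional copy of Ptf1a, and the cKO pancreas still held every cell type in which the locus is silent. The control mice were 4 months old (1 male and 2 females) and the cKO mice 5 months old (1 male and 2 females), so effects of age and of genotype cannot be told apart.

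Acinar cells make and export more protein for their size than almost any other cell. COPII coats, assembled by the GTPase SAR1 from SEC23-SEC24 and SEC13-SEC31 at exit sites marked by SEC16, carry new cargo out of the ER. COPI coats, recruited by ARF GTPases, return escaped ER residents and cycling receptors. The p24 proteins, lectins and KDEL receptors bind cargo or coats, TRAPP, COG and the golgins tether vesicles, and SNAREs fuse them with their target.

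Ptf1a itself stood at 566, 601 and 652 normalized counts in the control libraries and at 19.8, 70.1 and 10.2 in the cKO libraries, a log2 fold change (cKO minus control) of -4.41 (SE 0.49). Normalized counts are read counts that the authors had scaled between libraries. The scaling removed each library's number of reads from these values. Gene totals were 17949900 to 21175800 in the controls but 5527100 to 8981110 in the cKO, while the median gene was at 125.0 to 128.5 in every library. Digestive enzymes and other secreted acinar proteins held 83.7% to 86.2% of the control totals and 39.4% to 66.2% of the cKO totals. Of these 32 genes, 24 were lower and 1 higher in the cKO. The highest cKO share was in replicate 2, which also kept the most Ptf1a. This replicate was the only cKO male, so within the cKO group sex and retained Ptf1a cannot be told apart. Several marker sets of other cell types were also higher in the cKO libraries. Past the threshold and higher were 6 of 10 ductal markers (summed level 5813 to 6578 normalized counts in the controls and 28562 to 112294 in the cKO), 10 of 11 fibroblast and stellate markers (3089 to 3507 against 6084 to 10698), 6 of 9 leukocyte markers (596 to 915 against 1293 to 2870), 6 of 8 gastric chief and mucous cell markers (22956 to 27883 against 213131 to 567427) and 2 of 3 proliferation genes (28 to 102 against 109 to 496). Of the endothelial markers 1 of 8 passed, with sums of 832 to 1040 against 882 to 1100, and of the endocrine markers 0 of 9, with sums of 11477 to 42923 against 5885 to 33467. No marker in the table was at 0 in all the controls. In whole tissue, a change in the number of cells of a type and a change in RNA per cell cannot be told apart. Nor can expression of a marker by cells of another type. By staining, the paper reports the duct factor SOX9 in most acinar cells that carried the Cre reporter after Ptf1a deletion. The part these marker shifts had in the results that follow was not tested.

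Most of the transport genes differed little between the groups. Past an adjusted p of 0.05 were 16 of the 84 genes (19%), against 33.9% of all 10245 genes. Of the 16, 12 were lower in the cKO (Tmed11, Trappc9, Tmed2, Copz2, Trappc10, Arfgap3, Lman1, Bet1, Sec31b, Kdelr3, Sar1a and Golga1) and 4 were higher (Sec16b, Sec23b, Lman2l and Trappc12), where 16.8% of all genes were lower and 17.1% higher. The test was limma's moderated linear model on log2 values over all genes, two-sided, with Benjamini-Hochberg adjustment. The median size of the log2 fold change, whatever its sign, was 0.16 in these genes and 0.33 in all genes, with median standard errors of 0.13 and 0.16. A log2 fold change smaller than 0.5 in either direction was found in 70 of the 84 genes (83.3%) and in 65.7% of all genes. With a log2 fold change of at least 1 as well, 4 of the 84 genes passed, against 11% of all genes. The groups did not overlap in 33 of the 84 genes (13 with the cKO above and 20 with it below) and in 50.8% of all genes. The summed level of all 84 genes was 47981 to 49216 normalized counts in the controls and 42396 to 46302 in the cKO, which do not overlap. For the 68 genes that did not pass it was 37984 to 39274 against 36036 to 39093. These 68 were picked by the same test, so the closeness of their sums is no further support. The machinery was well expressed, with 67 genes (79.8%) above the median gene of the controls.

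**Figure D1:**
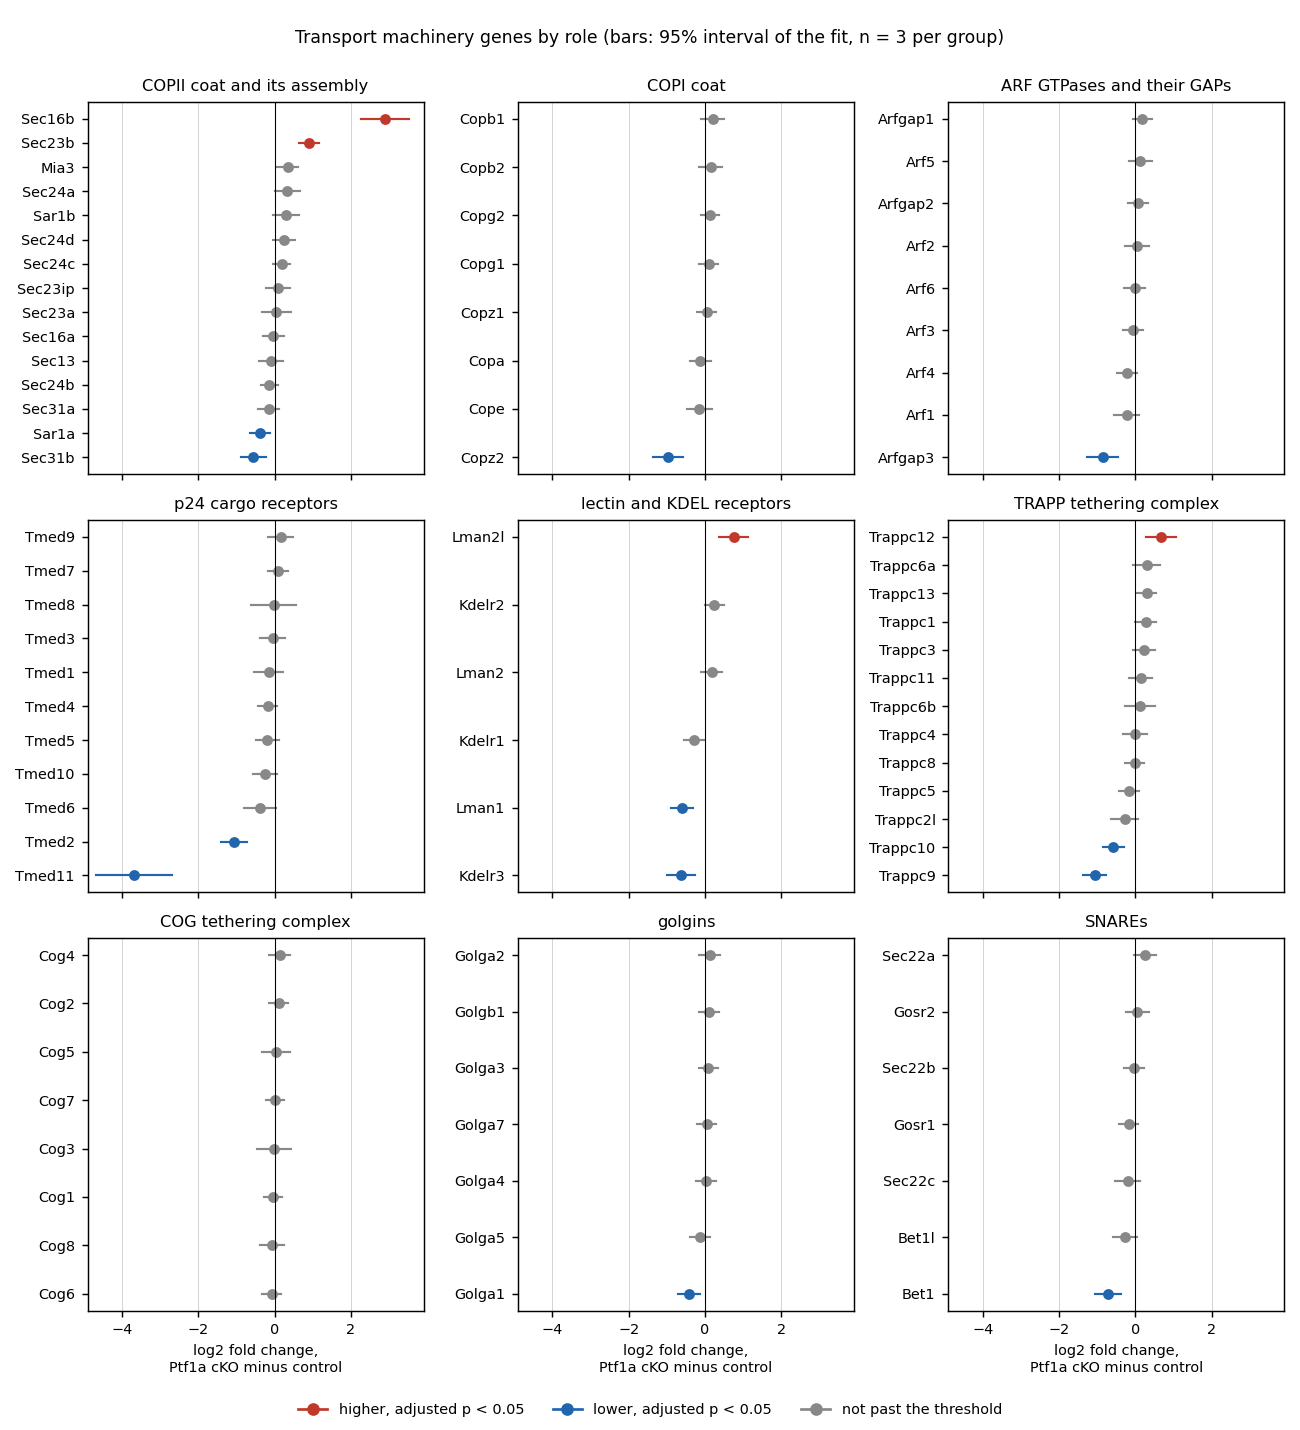
Log2 fold change (cKO minus control) of each of the 84 transport genes, in 1 panel per role, with the 95% interval of the fit (n = 3 per group); red points were higher and blue points lower past an adjusted p of 0.05. The points of every role crowd around 0, and Tmed11 at -3.68 and Sec16b at 2.89 lie farthest out.

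The direction of a change rests on the scale that the authors had set. If every library is given the same total, the median gene of the table moves by 1.49 on the log2 scale (by -0.14 if the enzymes are left out of the totals), and 81 of the 84 genes then count as higher and 1, Tmed11, as lower. A change of scale moves every gene by nearly the same amount, so a gene's distance from the median gene hardly depends on it. All 16 genes kept their side of the median gene under each of the scalings tried, which is therefore no independent check. The fold changes below are therefore changes relative to the bulk of the genes.

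Promoter sequences were compared first, since many genes of the secretory pathway are switched on together under ER load by factors such as ATF6, XBP1 and members of the CREB family. RefSeq promoters (GRCm38.p6, from 250 bases before to 50 bases after the start) were found for 71 of the 84 genes, including 12 of the 16 that passed, and for 7732 genes of the table. Of the 71 genes, 11 have 2 promoters, and a gene counted as a match if any of its promoters held the letters. The letters TGACGTG are the core of the unfolded protein response element. They occurred on either strand in 9 of the 71 genes (12.7%) and in 3.53% of all 7732 genes. The 9 genes included Arf1, Copb1, Copb2, Golga1, Kdelr3, Mia3, Sec16b and Sec24d. These 8 are shown to set the sites of 1 gene that rose (Sec16b) and 2 that fell (Kdelr3 and Golga1) beside those of 5 that did not pass, as 30 bases around each match, 5′ to 3′ along the gene, with the match in capitals (CACGTCA is the same motif read on the other strand) and its first base numbered from the start.
Sec16b (chr1:157506740-157506769, plus strand, at -44): gttctgtgtggcTGACGTGgcacggcagtt
Kdelr3 (chr15:79516367-79516396, plus strand, at -29): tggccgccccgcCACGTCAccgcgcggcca
Golga1 (chr2:39065693-39065722, minus strand, at -169): ggtgcctctcgcTGACGTGtcagtggccgg
Mia3 (chr1:183369634-183369663, minus strand, at -86): ctgagcccttgcTGACGTGtcactcgcagc
Sec24d (chr3:123267458-123267487, plus strand, at -26): cgcccgggcgccTGACGTGgcactagcaac
Copb1 (chr7:114254690-114254719, minus strand, at -27): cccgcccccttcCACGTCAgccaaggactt
Copb2 (chr9:98563713-98563742, plus strand, at -6): tcccggaagttcCACGTCAgtgggttggcc
Arf1 (chr11:59228229-59228258, minus strand, at 22 or, from a second start, -84): cgcggcaggcgcTGACGTGgctgccgtcag

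Of the 9 genes with this motif, 1 rose (Sec16b), 2 fell (Kdelr3 and Golga1) and the other 6 did not pass the test. The 6 had log2 fold changes from -0.23 (Arf1) to 0.35 (Mia3). The shorter core TGACGT lies within TGACGTG and is bound by CREB-type factors. It was in 23 of 71 genes (32.4%) and in 14.0% of all genes with a promoter. The letters CCACG, a part of the ER stress element that can overlap TGACGTG on the other strand, were in 49 (69.0%) against 53.7%. The complete element, CCAAT, 9 bases and CCACG, was in 0 of the 71 and in 0.168% of all genes with a promoter. CCAAT alone was in 33 (46.5%) against 42.8%. E-boxes are read by basic helix-loop-helix factors such as PTF1A. CAGCTG was in 9 genes (12.7%) against 18.1%, CACCTG in 21 (29.6%) against 21.6% and CATATG in 1 (1.41%) against 1.99%. A match to these letters is a description of the promoter and not a bound site, and promoters were searched in a later build than the mm9 build to which the reads were aligned.

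COPII genes include the machinery's largest rise. Of the 15 genes of the coat and its assembly, 2 were higher (Sec16b and Sec23b), 2 lower (Sec31b and Sar1a) and 11 did not pass. Sec16b, the shorter of the SEC16 scaffolds at ER exit sites, was at 31.5, 35 and 53.9 normalized counts in the controls and at 362, 201 and 412 in the cKO. The groups did not overlap and the cKO mean was 8.10 times the control mean. The lowest cKO value was in replicate 2, the cKO library with the most acinar enzyme RNA. The log2 fold change was 2.89 (SE 0.28, adjusted p = 0.00018), and it was 3.20 without that library. Its long paralog Sec16a was at 1113, 1083 and 1054 in the controls and at 966, 1188 and 1029 in the cKO, which overlap, with a log2 fold change of -0.03 (95% interval -0.30 to 0.23). The ratio of Sec16a to Sec16b counts within a library fell from 35.3, 30.9 and 19.6 to 2.67, 5.90 and 2.50. Per kilobase of exon the mean level of Sec16b rose from 7.42 to 60.1, against 118 and 115 for Sec16a, so it stayed the lower of the pair.

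The upstream 150 bases of Sec16b, the gene that rose most, are given with those of Sec23b, which also rose, and Kdelr3, which fell. Sec16b and Sec23b have 2 promoters each, and only the first is shown. The second promoter of either gene held neither TGACGTG nor TGACGT. The capitals mark TGACGTG in either direction in Sec16b and Kdelr3 and TGACGT in Sec23b.
Sec16b (chr1:157506646-157506795, plus strand): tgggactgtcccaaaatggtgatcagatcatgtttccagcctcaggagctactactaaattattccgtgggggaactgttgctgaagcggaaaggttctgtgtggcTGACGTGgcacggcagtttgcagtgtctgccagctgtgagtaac
Sec23b (chr2:144556079-144556228, plus strand): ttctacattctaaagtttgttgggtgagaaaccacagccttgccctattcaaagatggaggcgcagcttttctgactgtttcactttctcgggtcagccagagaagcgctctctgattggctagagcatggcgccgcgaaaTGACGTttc
Kdelr3 (chr15:79516258-79516407, plus strand): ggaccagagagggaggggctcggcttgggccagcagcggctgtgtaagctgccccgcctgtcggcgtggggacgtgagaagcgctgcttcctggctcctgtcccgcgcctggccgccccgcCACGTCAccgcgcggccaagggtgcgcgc

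Sec23b encodes the GTPase-activating subunit of the inner coat that the mouse pancreas is known to depend on. It was at 830.0, 805 and 674 normalized counts in the controls and at 1433, 1405 and 1461 in the cKO. All 3 cKO libraries lay close together and far above the controls, with a log2 fold change of 0.90 (SE 0.12, adjusted p = 0.00075). Its paralog Sec23a had the lower mean level per kilobase of exon (15.2 against 122 in the controls), and its groups overlapped, at 59.4, 75.6 and 85.9 against 75, 66.9 and 83.0. Among the cargo-binding SEC24 subunits none passed. Sec24a was at 228, 211 and 227 in the controls and at 327, 226 and 293 in the cKO, Sec24b at 274, 275 and 277 against 253, 257 and 241. The log2 fold changes of the 4 were 0.33 (Sec24a), -0.14 (Sec24b), 0.18 (Sec24c) and 0.25 (Sec24d). Sec24a passed when cKO replicate 2 was left out (adjusted p = 0.018).

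A gene of the outer coat and a gene of the GTPase were lower. Sec31b, a form of the SEC31 subunit, fell from 98.6, 118 and 96.3 normalized counts to 62.1, 73.0 and 74.4, a log2 fold change of -0.56 (SE 0.14, adjusted p = 0.016) that did not pass without control replicate 2 (0.068) or without cKO replicate 1 (0.057). Sec31a, with a mean per kilobase of exon of 212 against 26.4 for Sec31b in the controls, was at 1690.5, 1767 and 1548 against 1398, 1646 and 1463, which overlap, with a log2 fold change of -0.15. Sar1a, 1 of the 2 SAR1 GTPases, fell from 1093, 1145 and 1208 to 942, 888 and 789.6. Its log2 fold change of -0.40 (SE 0.12, adjusted p = 0.028) passed in only 2 of the 6 fits that left out 1 library, namely without cKO replicate 1 and without cKO replicate 2. Sar1b was at 206, 238 and 171 against 274, 225 and 255, which overlap, with a log2 fold change of 0.30 that did not pass. Sec13 (-0.09), which also serves the nuclear pore, and Sec23ip (0.09), a SEC23 partner, did not pass. Mia3 encodes TANGO1, which loads collagens and other large cargo. Its groups did not overlap, but its log2 fold change of 0.35 missed the threshold (SE 0.12, adjusted p = 0.054).

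**Figure D2:**
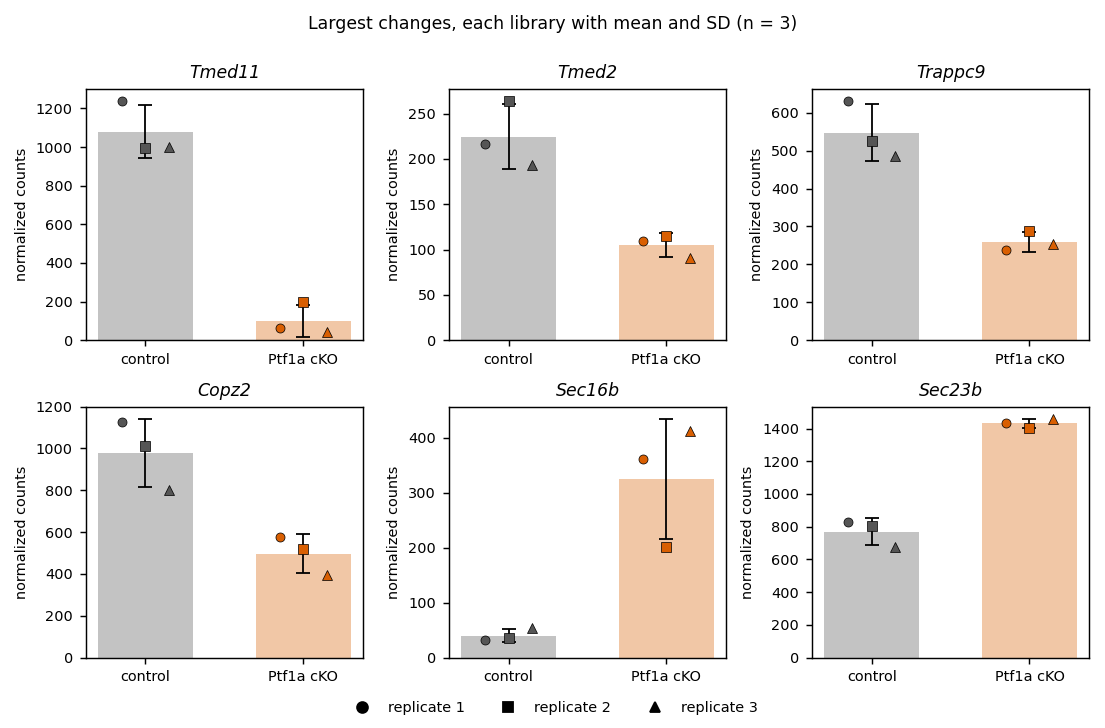
Normalized counts of Tmed11, Tmed2, Trappc9, Copz2, Sec16b and Sec23b in each library (points, shaped by replicate number), with the group mean (bar) and SD (line) for n = 3. In all 6 genes the 3 cKO libraries lie apart from the 3 control libraries, with cKO replicate 2 nearest to the controls for Tmed11 (197) and Sec16b (201).

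In the COPI coat 1 of the 8 genes fell and the other 7 did not pass. Copz2, the second zeta subunit, was at 1125, 1012 and 803 normalized counts in the controls and at 575, 521 and 394 in the cKO. The cKO mean was 50.7% of the control mean, and the log2 fold change was -0.98 (SE 0.17, adjusted p = 0.003). Its paralog Copz1 was at 716, 723 and 695 against 791, 680.0 and 728, which overlap. The Copz1 to Copz2 count ratio was 0.636, 0.715 and 0.866 in the controls and 1.38, 1.30 and 1.85 in the cKO. Per kilobase of exon the mean level of Copz2 went from 444 to 225, and that of Copz1 from 194 to 200.1, so that levels that had been far apart came close. The other 6 subunits chosen by the rule, with Copz1, had log2 fold changes between -0.15 (Cope) and 0.20 (Copb1), and none of these 7 passed. Copa, the most abundant of them, was at 2019, 2249 and 1993 against 2115, 1753 and 1889. Arcn1, the delta subunit, has a symbol outside the rule. It fell from 1686, 1712 and 1695 to 1143, 1248 and 1006, a log2 fold change of -0.59 (SE 0.12, adjusted p = 0.0059).

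ARF GTPases recruit COPI, and ARF GAPs end their active state. Of these 9 genes only Arfgap3 passed. It was at 1264, 1358 and 1235 normalized counts in the controls and at 736, 900.1 and 532 in the cKO, with a log2 fold change of -0.86 (SE 0.18, adjusted p = 0.0065). Arfgap2 was at 368, 400.4 and 390.4 against 387, 450.2 and 373, which overlap, but 58.9% of its 50-base words occur in other genes, so its count is uncertain. The log2 fold changes of the other 7 ran from -0.23 (Arf1) to 0.18 (Arfgap1). Arf4, the most abundant by count, was at 1457, 1531 and 1654 against 1407, 1372 and 1226, just below the controls, with a log2 fold change of -0.21 that did not pass.

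The p24 family showed the deepest fall. These small transmembrane proteins cycle between ER and Golgi as complexes of alpha, beta, gamma and delta members. Of the 11 genes, 2 were lower (Tmed11 and Tmed2), none was higher and 9 did not pass. Tmed11, an alpha member, was at 1239, 998 and 1003 normalized counts in the controls and at 61.1, 197 and 42.9 in the cKO. The cKO mean was 9.29% of the control mean, with a log2 fold change of -3.68 (SE 0.44, adjusted p = 0.00046). The highest cKO value was in replicate 2, the cKO library with the most Ptf1a and enzyme RNA. Without this library the log2 fold change was -4.30. Of the exon bases of Tmed11, 23.2% are shared with Vmn2r8 on the same strand and 18.1% of its 50-base words occur in other genes, so part of its count could be split with them. The other alpha members did not follow it, with log2 fold changes of -0.18 for Tmed4 and 0.16 for Tmed9. The ratio of Tmed11 to Tmed9 counts was 2.78, 2.24 and 1.81 in the controls and 0.108, 0.332 and 0.0941 in the cKO, a ratio chosen after the values were seen and not tested.

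Tmed2, the only beta member and a partner of all p24 complexes, was at 217, 264 and 193 normalized counts in the controls and at 109, 115 and 90.7 in the cKO. The groups were far apart, with a cKO mean at 46.8% of the control mean and a log2 fold change of -1.07 (SE 0.15, adjusted p = 0.001). Of its 50-base words, 25.4% occur in other genes. The only delta member, Tmed10, had a log2 fold change of -0.25 with overlapping groups. The 5 gamma members lay between -0.38 (Tmed6) and 0.08 (Tmed7) and none passed. Tmed6, known to be abundant in pancreas, had the highest level of all 84 genes, also per kilobase of exon (4495 in the controls and 3521 in the cKO). It was at 3812, 4047 and 3886 in the controls and at 3821, 3071 and 2308 in the cKO, where replicate 1 lay within the control range. Its log2 fold change of -0.38 (SE 0.18, adjusted p = 0.14) passed only without cKO replicate 1 (adjusted p = 0.046). Tmed3, the third in level per kilobase, was at -0.05, and Tmed8, which is not assigned to a subfamily here, at -0.03.

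**Figure D3:**
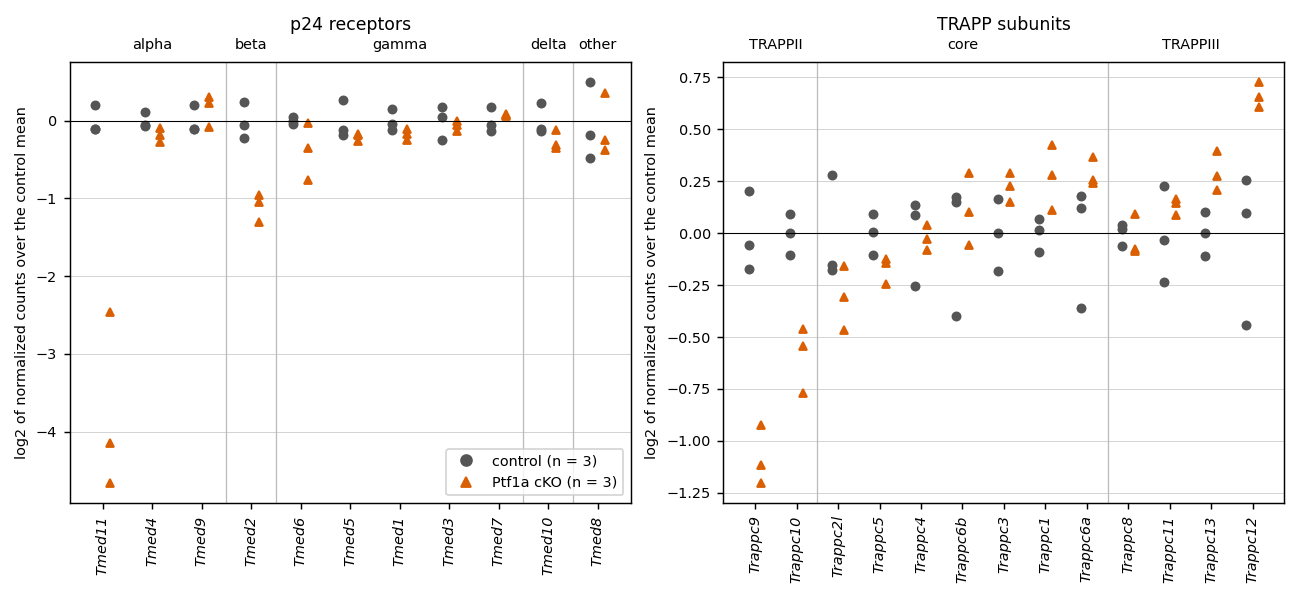
Log2 of the normalized counts over the control mean, for each library, of the 11 p24 genes by subfamily and the 13 TRAPP genes by complex (circles, 3 controls; triangles, 3 cKO). Tmed11 and Tmed2 fall below all other p24 genes, and the TRAPPII subunits Trappc9 and Trappc10 fall below the controls while Trappc12 rises above them.

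TRAPP complexes tether vesicles and activate RAB GTPases. Of the 13 genes, 2 were lower (Trappc9 and Trappc10), 1 was higher (Trappc12) and 10 did not pass. Trappc9 was at 631, 525 and 485 normalized counts in the controls and at 238, 288 and 252 in the cKO, with a log2 fold change of -1.06 (SE 0.13, adjusted p = 0.00058). Trappc10 was at 544, 579.5 and 505 against 319, 395 and 373, with a log2 fold change of -0.58 (SE 0.12, adjusted p = 0.0064). In both genes the groups did not overlap, and both encode subunits particular to TRAPPII, the form that acts at the Golgi and beyond. Trappc12, a subunit of TRAPPIII, rose from 124, 138 and 85.2 to 182, 176 and 191. Its log2 fold change was 0.67 (SE 0.17, adjusted p = 0.016), and it fell just short without cKO replicate 3 (adjusted p = 0.0503). The other TRAPPIII subunits were at -0.02 (Trappc8), 0.14 (Trappc11) and 0.29 (Trappc13), and none passed. The 7 genes of the shared core lay between -0.29 (Trappc2l) and 0.30 (Trappc6a), and none passed. The division by subfamily and complex was made after the values were seen, and no test was made on it.

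Receptors that select cargo or retrieve it changed in both directions. Of the 6 lectin and KDEL receptor genes, 2 were lower (Lman1 and Kdelr3) and 1 higher (Lman2l). Lman1 encodes ERGIC-53, a mannose lectin that carries glycoproteins out of the ER. It was at 1664, 1754 and 1867 normalized counts in the controls and at 1159, 1297 and 1019 in the cKO, with a log2 fold change of -0.61 (SE 0.13, adjusted p = 0.0067). Its cofactor Mcfd2, outside the rule, fell further, from 3352, 3397 and 3667 to 1290, 1737 and 1148 (-1.34, SE 0.16, adjusted p = 0.00052). Lman2l, a lectin of the ER, rose from 57.1, 75.6 and 90.2 to 127, 129 and 121, a log2 fold change of 0.75 (SE 0.17, adjusted p = 0.0086). Lman2, its paralog, was at 831, 834 and 951 against 940.4, 1075 and 927, which overlap.

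KDEL receptors bring escaped ER chaperones back. Kdelr3 was at 257, 261 and 319 normalized counts in the controls and at 196, 203 and 141 in the cKO, with a log2 fold change of -0.63 (SE 0.16, adjusted p = 0.016) that missed the threshold without control replicate 3 (0.053). Kdelr1 was at 834, 816 and 875.5 against 756, 709 and 614, and Kdelr2 at 438, 441 and 454 against 540.0, 569 and 475. Both had groups that did not overlap, in opposite directions, and neither passed (log2 fold changes of -0.28 and 0.24, adjusted p = 0.089 and 0.12).

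The COG complex, a tether within the Golgi stack, had the narrowest range of fold changes among the roles. None of its 8 genes passed, and their log2 fold changes ran from -0.08 (Cog6) to 0.13 (Cog4). Cog6, the most abundant by count, was at 521, 522 and 522 normalized counts in the controls and at 520.4, 517 and 444 in the cKO, and Cog4, with the smallest adjusted p (0.43), at 285, 239 and 223 against 278, 278 and 258. The largest of these changes, that of Cog4, had a 95% interval of -0.15 to 0.41. Of the 7 golgins, long coiled-coil tethers, Golga1 (golgin-97 of the trans-Golgi) was the only one to pass. It was at 358, 399 and 403 in the controls and at 288, 333 and 252 in the cKO, but its log2 fold change of -0.41 (SE 0.13, adjusted p = 0.036) passed in only 1 of the 6 fits without 1 library, the one without cKO replicate 2. The other 6 golgins ran from -0.13 (Golga5) to 0.13 (Golga2), and Golga4, the most abundant by count, was at 1107, 1069 and 1039 against 999.9, 1234 and 1056.

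Of the 7 SNARE genes 1 was lower. Bet1, which acts in ER-to-Golgi fusion, was at 464, 474 and 388 normalized counts in the controls and at 305, 289.8 and 213 in the cKO, with a log2 fold change of -0.72 (SE 0.16, adjusted p = 0.0077). Bet1l, its relative within the Golgi, was at 253, 265 and 280.2 against 239.8, 245 and 179, just below the controls, and did not pass (-0.28, adjusted p = 0.16). Sec22b, the best known SEC22 form, was at -0.03. Sec22a was at 76.4, 79.1 and 70.3 against 87.9, 92.1 and 89.7 and Sec22c at 79.9, 83.7 and 66.6 against 62.5, 67.0 and 68.0, and neither passed. Gosr2, at 473, 467 and 353 against 421, 479 and 432, and Gosr1 (-0.17) did not pass.

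Ratios between paralogs within a library do not depend on the scaling of libraries, and 20 pairs were compared by an exact permutation test over the 6 libraries. With 3 against 3 the smallest two-sided p is 0.10, so no pair could pass a threshold of 0.05. Of the 20 pairs, 12 had ratios that did not overlap between the groups, each with an exact p of 0.10 and an adjusted p over the pairs of 0.17. Among single genes of the table, 50.8% had groups that did not overlap, and the share among other gene pairs was not computed. The 12 pairs are given as differences of the log2 ratio, cKO minus control. The differences were negative, toward the second gene, for Sec16a to Sec16b (-2.92), Sec23a to Sec23b (-0.86), Sar1a to Sar1b (-0.69), Lman2 to Lman2l (-0.58), Kdelr1 to Kdelr2 (-0.53) and Bet1 to Bet1l (-0.44). They were positive, toward the first gene, for Copz1 to Copz2 (1.02), Arfgap2 to Arfgap3 (0.92), Kdelr2 to Kdelr3 (0.88), Sec24a to Sec24b (0.46), Sec22a to Sec22c (0.45) and Sec31a to Sec31b (0.40). The 2 Kdelr pairs share Kdelr2 and are not independent. The ratio of Kdelr1 to Kdelr2 was 1.90, 1.85 and 1.93 in the controls and 1.40, 1.25 and 1.29 in the cKO, and that of Sec22a to Sec22c 0.957, 0.945 and 1.06 against 1.41, 1.37 and 1.32. In these 2 pairs, and in Sec24a to Sec24b, neither gene had passed on its own. The 8 pairs that overlapped were Sec24c to Sec24d, Copg1 to Copg2, Arf1 to Arf3, Arf4 to Arf5, Tmed3 to Tmed7, Tmed4 to Tmed9, Tmed1 to Tmed5 and Trappc6a to Trappc6b, with differences from -0.34 to 0.17.

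**Figure D4:**
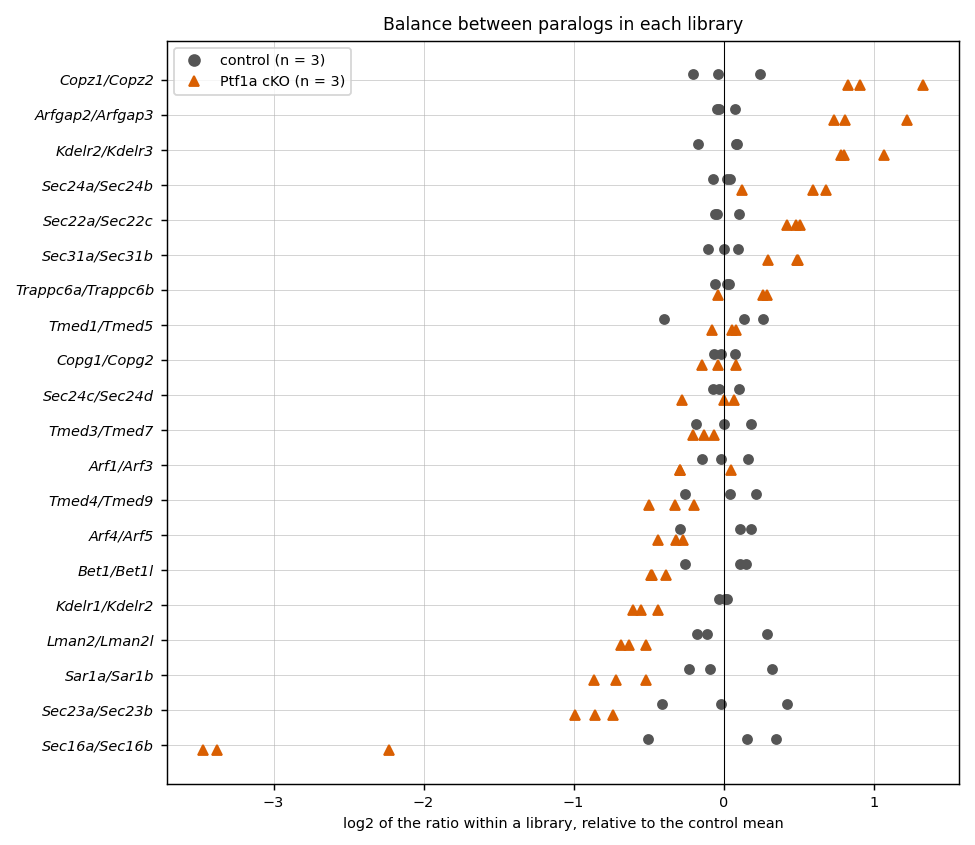
Log2 of the count ratio between 2 paralogs within each library, relative to the mean of the controls, for 20 pairs (circles, 3 controls; triangles, 3 cKO). In 12 pairs the circles and triangles do not overlap, with the widest gap for Sec16a to Sec16b.

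Among 53 other ER-Golgi transport genes outside the rule, 12 passed (22.6%, against 33.9% of all genes), 4 of them higher and 8 lower. The 3 with the smallest adjusted p were Golm1, a Golgi membrane protein, Mcfd2 and Ergic3, a cargo receptor of the ER-Golgi intermediate. Golm1 rose from 26.8, 28.0 and 42.2 normalized counts to 305, 239 and 351, a log2 fold change of 3.09 (SE 0.20). Ergic3 rose from 706, 625 and 522 to 1368, 1003 and 1175 (0.93, SE 0.16). In both, the groups were far apart. Gcc2 (0.83) and Bcap31 (0.52) were also higher. Also lower were the Golgi stacking proteins Gorasp2 (-0.86) and Gorasp1 (-0.47), Napa (-0.68), which helps recycle SNAREs, Arcn1, Tmem115 (-0.56), Scfd2 (-0.50) and Rab1 (-0.43), the GTPase activated by TRAPP.

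Of 7 regulators of secretory genes in the table, 2 were lower and 1 higher (42.9% called, against 33.9% of all genes). Bhlha15 (MIST1), a factor of secretory cells, fell from 5830, 5154 and 6036 normalized counts to 986, 2348 and 814, a log2 fold change of -2.19 (SE 0.33, adjusted p = 0.0015), with its highest cKO value in replicate 2. Atf6, an ER stress sensor, fell from 1171, 1305 and 1261 to 473, 557 and 463 (-1.32, SE 0.12, adjusted p = 0.00014). Creb3l1 rose from 523, 614 and 449 to 764, 791 and 720.1 (0.53, SE 0.13, adjusted p = 0.016). The other 4 did not pass. Their log2 fold changes were 0.48 for Creb3 (adjusted p = 0.099, with groups that did not overlap), 0.32 for Creb3l2, 0.07 for Atf6b and -0.04 for Xbp1.

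Of the 16 transport genes that passed, 11 passed in each of the 6 fits that left out 1 library. The exceptions were Golga1, Sar1a, Sec31b, Kdelr3 and Trappc12.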

How the data were processed

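RNA-seq of whole pancreas gave 6 libraries, 3 per group (50-nt single-end reads, per the study's methods). The submitters' processing notes name TopHat2 2.0.4, Bowtie 0.12.7.0, SAMtools 0.1.18.0, HTSeq 0.6.0 and mm9. The study's methods name TMM normalization. The annotation, the strand setting of the counter and any filter are not given in the sources used here.

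The authors deposited 1 table whose unit is a signal, normalized read counts that are not whole, so whole reads were not recovered and no count model was run. There, 766 genes share all 3 control values with another gene, and 16 share all 3 cKO values. The 3 rows that name no gene, 75.7% to 82.6% of a library's total with them, were left out. Values were divided by 13.6, 0.25 was added and log2 taken (R 4.3.3). The groups were compared with limma 3.58.1 (mean-variance trend, no covariate, two-sided) over all 10245 genes with Benjamini-Hochberg adjustment, with a threshold of 0.05. A fold change on this scale understates the change of low genes. The study's methods give the uniquely aligned reads of each library, but scaled values do not carry these numbers. No counting interval is therefore given, and precision rests on 3 mice per group. Exact permutation tests used scipy 1.17.1 and Python 3.11.15. Exon overlaps and shared 50-base words came from GENCODE M21, by symbol.

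The genes, lists and roles were chosen with earlier results of these data known. Every gene of the rule could be named. Values in all libraries were given for genes past the threshold with a log2 fold change of at least 1, for the smallest adjusted p and the highest mean of each role, for paralog pairs that did not overlap, and for up to 3 genes of each other list. Outside this rule, Trappc12 and Arcn1 were also given in all libraries. The alternatives were other pseudocounts, filters, scalings, thresholds and limma settings, sex as a covariate, the replicate number as a block, and each library left out in turn. The fit was tested on simulated data. The sequence around 1 promoter match is not reported here.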

Additional observations from a re-analysis of the deposited data

How the results depend on the processing

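The counts of 12 lower and 4 higher genes stayed within 1.5 times these values under all alternatives but one. With the same total in every library, 1 gene was lower and 81 were higher, while the median gene of the table moved by 1.49. Leaving out 1 library gave 9 to 12 lower and 4 to 5 higher genes. An adjusted p under 0.01 gave 8 and 3, array weights 12 and 6, and the same total without enzymes 15 and 3. The age of the mice follows the genotype, and counting error could not be computed from the scaled values. Models of read counts were not run, since whole reads were not recovered.

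For 37 genes with values in every library, 703 values under 19 alternatives gave 628 with the same direction and call, 20 that lost the call, 16 that gained it and 39 of the opposite sign. With the same total in every library the sign turned for Arf4 (1.28), Arfgap3 (0.63), Bet1 (0.76), Bet1l (1.202), Cog6 (1.41), Copa (1.37), Copz2 (0.51), Golga1 (1.07), Kdelr1 (1.21), Kdelr3 (0.84), Lman1 (0.89), Sar1a (1.10), Sec16a (1.46), Sec22c (1.23), Sec24b (1.34), Sec31a (1.34), Sec31b (0.89), Tmed2 (0.40), Tmed6 (1.11), Trappc10 (0.90) and Trappc9 (0.42), and each of these values is below the shift of the median gene. With the same total without enzymes it turned for Arfgap2 (-0.12), Cog4 (-0.047), Copz1 (-0.14), Golga4 (-0.15), Gosr2 (-0.13), Lman2 (-0.012) and Sec23a (-0.14), none of which had passed. It also turned for Sec16a with the same 75th percentile (0.011), and for Golga4 (-0.020) and Gosr2 (-0.048) with array weights. Leaving out 1 library turned the sign within the ranges -0.022 to 0.11 for Arfgap2, -0.016 to 0.093 for Copz1, -0.060 to 0.092 for Golga4, -0.083 to 0.13 for Gosr2, -0.12 to 0.030 for Sec16a and -0.10 to 0.15 for Sec23a. Apart from the change of scale, the cause was not tested.

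The replicate number as a block gave 12 lower and 4 higher genes, the same 16. Control and cKO libraries with the same number correlated at 0.0391, 0.134 and 0.144 in their deviations from the group means. Every control library correlated best with its own number, but cKO replicate 1 correlated best with control replicate 2 (0.0829), and nothing in the labels pairs them.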

Other observations

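Whether or not they passed, 33 of the 84 transport genes had groups that did not overlap, against 50.8% of all genes. The share among all genes that did not pass was not computed. Beyond the 16 transport genes that passed, 17 of the other 68 had groups that did not overlap. In 9 of them the cKO lay above the controls (Copg2, Sec24c, Sec24d, Mia3, Sec22a, Trappc1, Trappc13, Trappc6a and Kdelr2) and in 8 below (Arf4, Cog6, Sec24b, Bet1l, Gosr1, Trappc5, Kdelr1 and Tmed4). Their log2 fold changes ran from -0.28 (Kdelr1) to 0.35 (Mia3).

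The inner COPII coat, Sec23a, Sec23b and the Sec24 genes, summed to 2753, 2842 and 2632 normalized counts in the controls and to 3634, 3691 and 3663 in the cKO, and the p24 genes to 10102, 10760 and 11305 against 9334, 8464 and 7640. In both sums the groups did not overlap, in opposite directions. Single genes weighed heavily, as 5 of the 6 inner coat genes and 9 of the 11 p24 genes did not pass. Sec23b had means of 770 in the controls and 1433 in the cKO, Tmed11 of 1080 and 100, and Tmed6 of 3915 and 3067. The ratio of Lman1 to its cofactor Mcfd2 was 0.496, 0.516 and 0.509 in the controls and 0.899, 0.747 and 0.888 in the cKO. The ratio of Trappc9 to Trappc10 was 1.16, 0.906 and 0.961 against 0.747, 0.730 and 0.677. These sums and ratios were chosen after the values were seen and were not tested.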
